A study of Rattus norvegicus with 36 samples.

Results

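The livers of 6 male rats given PBDE47 at 48.5 mg/kg were compared with the livers of 6 male rats given vehicle. PBDE47 is 2,2',4,4'-tetrabromodiphenyl ether, a brominated flame retardant. These 12 arrays were chosen by their dose labels, out of 36 arrays in 6 groups of 6, and all 31042 probe sets other than the array's own controls were used. All animals were Harlan Sprague Dawley rats, 7 weeks old at the start. They were dosed by oral gavage with corn oil (5 ml/kg) alone or with PBDE47 on 5 consecutive days, at 48.5 mg/kg here, and at 485, 4.85, 0.485 and 0.0485 mg/kg in the other groups. Necropsy followed 1 day after the last dose. RNA came from the left liver lobe and each animal had an array of its own, so the spread within a group is the spread between animals, at a single time, in a single sex and with all cell types of the liver together. The comparison asks which liver transcripts differed from vehicle at the dose below the highest.

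Brominated diphenyl ethers are known from rodent liver as activators of the nuclear receptors CAR (Nr1i3) and PXR (Nr1i2), which switch on cytochromes P450 of the Cyp2b and Cyp3a families, conjugating enzymes and efflux pumps. The aryl hydrocarbon receptor AhR responds to planar halogenated compounds and switches on Cyp1a1, Cyp1a2 and Nqo1. NRF2 is a transcription factor released by electrophiles and oxidants, and it switches on glutathione transferases, quinone reductase and enzymes that supply NADPH. This is background and was not measured here, since the arrays measured RNA only.

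Cyp2b1 and Cyp2b2, the classical targets of CAR in rat liver, share a single probe set on this array and have none of their own, so they are reported as a joint value. The bases upstream of the 2 genes are shown because they are nearly the same, and capitals mark the bases that differ or have no partner in the other gene. Of 212 aligned bases, 204 were identical (96.2%). The sequences are from RefSeq, build GRCr8, plus strand, with Cyp2b1 at chr1:90645869-90646097 and Cyp2b2 at chr1:90722031-90722242.
Cyp2b1: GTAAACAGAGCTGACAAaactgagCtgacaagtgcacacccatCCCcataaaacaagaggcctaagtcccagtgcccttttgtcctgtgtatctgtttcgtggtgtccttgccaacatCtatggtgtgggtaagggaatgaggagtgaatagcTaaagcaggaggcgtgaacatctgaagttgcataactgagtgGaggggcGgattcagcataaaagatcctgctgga
Cyp2b2: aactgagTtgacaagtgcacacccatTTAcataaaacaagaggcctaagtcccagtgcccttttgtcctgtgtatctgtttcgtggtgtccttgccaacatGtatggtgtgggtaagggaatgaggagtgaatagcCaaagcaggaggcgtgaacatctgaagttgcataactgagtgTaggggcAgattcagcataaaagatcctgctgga

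At 48.5 mg/kg the liver carried more RNA for enzymes and pumps that handle foreign compounds, a small common rise of proteasome subunits, and less RNA for a scattered set of metabolic and secreted proteins. In limma's linear model with Benjamini-Hochberg adjustment, 1052 of 31042 probe sets (3.39%) had an adjusted p below 0.05, which is what "called", "rose" and "fell" mean below. Of these 797 were higher and 255 lower, and 4826 had an unadjusted p below 0.05. A gene was represented by its brightest probe set. Of 14217 genes, 573 rose (4.03%) and 154 fell (1.08%). The counts of list members given below are to be read against these shares. In 456 genes (3.21%), called or not, the 6 treated animals all lay on one side of the 6 vehicle animals. The count of probe sets rested in part on single animals, with 678 called without replicate 5 of the 48.5 mg/kg group and 712 without its replicate 6. It was 556 when the spread was taken from the 12 arrays compared in place of all 36.

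Most changes were small. The median rise was 1.23-fold and the median fall 1.26-fold. Of the genes that rose, 24 did so by at least 2-fold and 71 by at least 1.5-fold. Of those that fell, 8 did so by at least 2-fold and 24 by at least 1.5-fold. The share of calls that were higher was 75.8%. It was 66% after a further quantile normalization and 84.1% after centring each array on its median, so the balance of small rises and falls depends on the scaling.

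**Figure D1:**
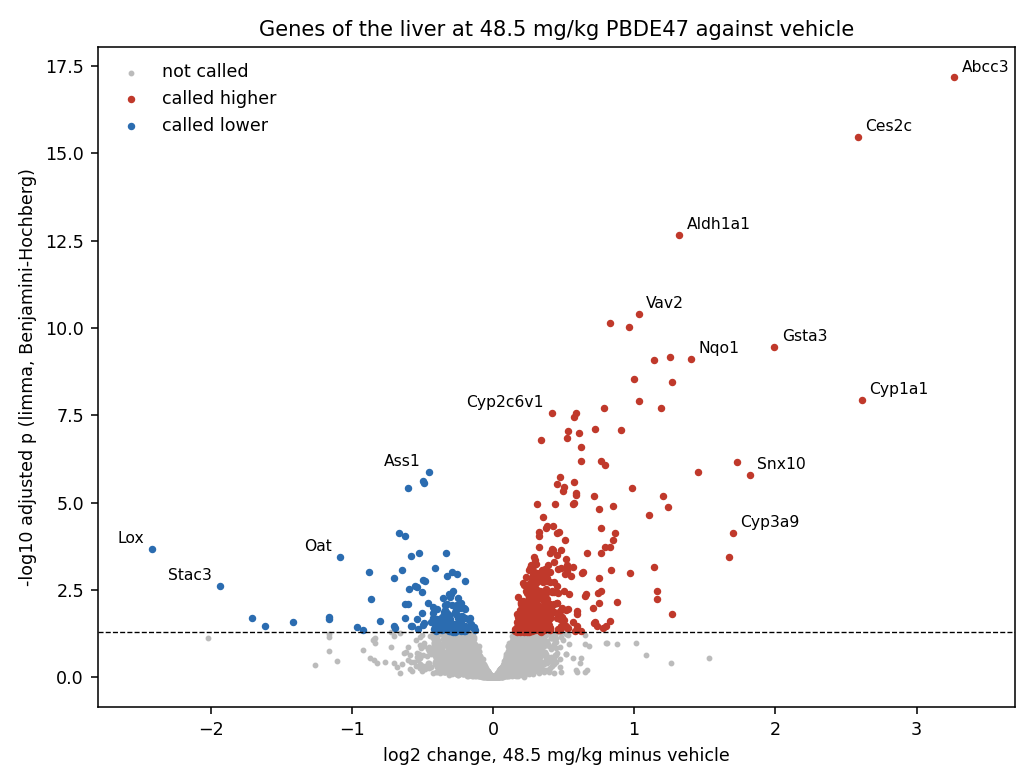
The log2 change at 48.5 mg/kg minus vehicle (x axis) and the -log10 adjusted p (y axis, limma) of 14217 genes, with called genes in red (higher, 573) and blue (lower, 154) and the adjusted p of 0.05 as a dashed line. Abcc3 stands at 3.27 and Lox at -2.41, and most called genes lie close to the line with small changes.

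Correlations between arrays ran from 0.993 to 0.995 within both groups and from 0.990 to 0.995 between them, and no pair of arrays held identical values. The 3' minus 5' difference of the Gapdh control probe sets, a measure of RNA integrity, averaged -0.05 in vehicle and -0.14 in treated animals (exact permutation test, two-sided, p = 0.0541, where 0.00216 is the smallest p possible). The hepatocyte marker Alb (albumin) was at the top of the scale in both groups, between 15.05 and 15.07 in vehicle and at 15.05 in every treated animal. Of 11 measured hepatocyte markers 0 rose and 2 fell, against 1.08% of all genes that fell (0 and 0 with the 12 arrays compared alone). Their median change was -0.04, and 10 of the 11 changes were below 0. The median member ran from -0.06 to -0.02 in treated animals and from -0.01 to 0.02 in vehicle. No detection calls were used. Where a group's mean was lower than the lowest of the array medians (5.31), its fold is inexact. Among the genes called and named here, such were Cyp1a1, Abcc3, Cyp4a8, Gadd45b and Abcd2, whose rises may be larger than stated, and Car1 and Cd8a, whose falls may be larger.

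The joint Cyp2b1 and Cyp2b2 probe set had the largest measured rise among the named probe sets, ahead of Abcc3 (3.27), whose rise may be understated as given above. The log2 values of the joint probe set lay between 10.02 and 11.19 (median 10.90) in vehicle and between 14.18 and 14.32 (median 14.25) in treated animals. All 6 treated animals lay above all vehicle animals, and they lay within 0.14 of each other. The change was 3.45 ± 0.17 (SE, n = 6 and 6), or 10.9-fold, with an adjusted p of 8.24e-17. The treated values lie near 15.05, the highest value on these arrays. The other Cyp2 enzymes did not follow as a group: of 25 measured members with a probe set of their own, 2 rose and 0 fell, with a median change of 0.00. The 2 were Cyp2c6v1, a constitutive P450 (0.42 ± 0.04, adjusted p = 2.71e-08), and Cyp2a1, a steroid hydroxylase (0.45 ± 0.10, adjusted p = 0.00754). Cyp2c11, the main male-specific P450 of rat liver, changed by 0.16 ± 0.06 and did not pass (adjusted p = 0.178).

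In the Cyp3a family, Cyp3a23-3a1, Cyp3a9 and Cyp3a2 also rose. On the joint list of Cyp1 and Cyp3 enzymes 4 of 7 measured genes rose and 0 fell, against 4.03% and 1.08% of all genes. Of the 7 changes 2 were below 0. Cyp3a23-3a1, the PXR-responsive P450 of rat liver, lay between 12.65 and 13.24 (median 13.06) in vehicle and between 14.06 and 14.22 (median 14.08) after treatment, with no overlap. Its change was 1.14 ± 0.10, or 2.21-fold (adjusted p = 8.30e-10). Cyp3a9 lay between 8.30 and 9.42 (median 8.68) in vehicle and between 9.63 and 11.31 (median 10.53) after treatment. The groups did not overlap, the treated animals were spread over more than the vehicle animals, and the change was 1.70 ± 0.26 (adjusted p = 7.50e-05). Cyp3a2, a constitutive male enzyme near the top of the scale, rose by 0.20 ± 0.05 (adjusted p = 0.00822; 0.0731 with the 12 arrays alone). Members of one P450 family are similar in sequence, and a probe set can take up RNA of a relative.

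Cyp1a1 and Cyp1a2 are both AhR targets, and Cyp1a1 alone rose. Cyp1a1 lay between 4.70 and 4.96 (median 4.80) in vehicle, below the array median, and between 6.23 and 8.24 (median 7.56) in treated animals. No animals overlapped, and the change was 2.61 ± 0.26, or 6.11-fold (adjusted p = 1.15e-08). Cyp1a2 was high in both groups, between 13.10 and 13.65 (median 13.26) in vehicle and between 13.32 and 13.59 (median 13.52) in treated animals. Its change of 0.20 ± 0.08 did not pass (adjusted p = 0.173). Nqo1, a quinone reductase shared by AhR and NRF2, moved from 6.99 to 7.56 (median 7.28) in vehicle to 8.40 to 9.05 (median 8.69), a rise of 1.40 ± 0.12 with no overlap (adjusted p = 7.80e-10). Ahr itself rose by 0.74 ± 0.16 (adjusted p = 0.00392), but its other probe set changed by -0.18. Of 10 measured members of the AhR list, Cyp1a1, Nqo1 and Ahr rose and 0 fell. Its other members include Arnt, the partner of AhR (-0.00 ± 0.10), Ahrr, its repressor (0.01 ± 0.10), and Cyp1b1 (-0.11 ± 0.08), with adjusted p of 0.992, 0.973 and 0.565.

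**Figure D2:**
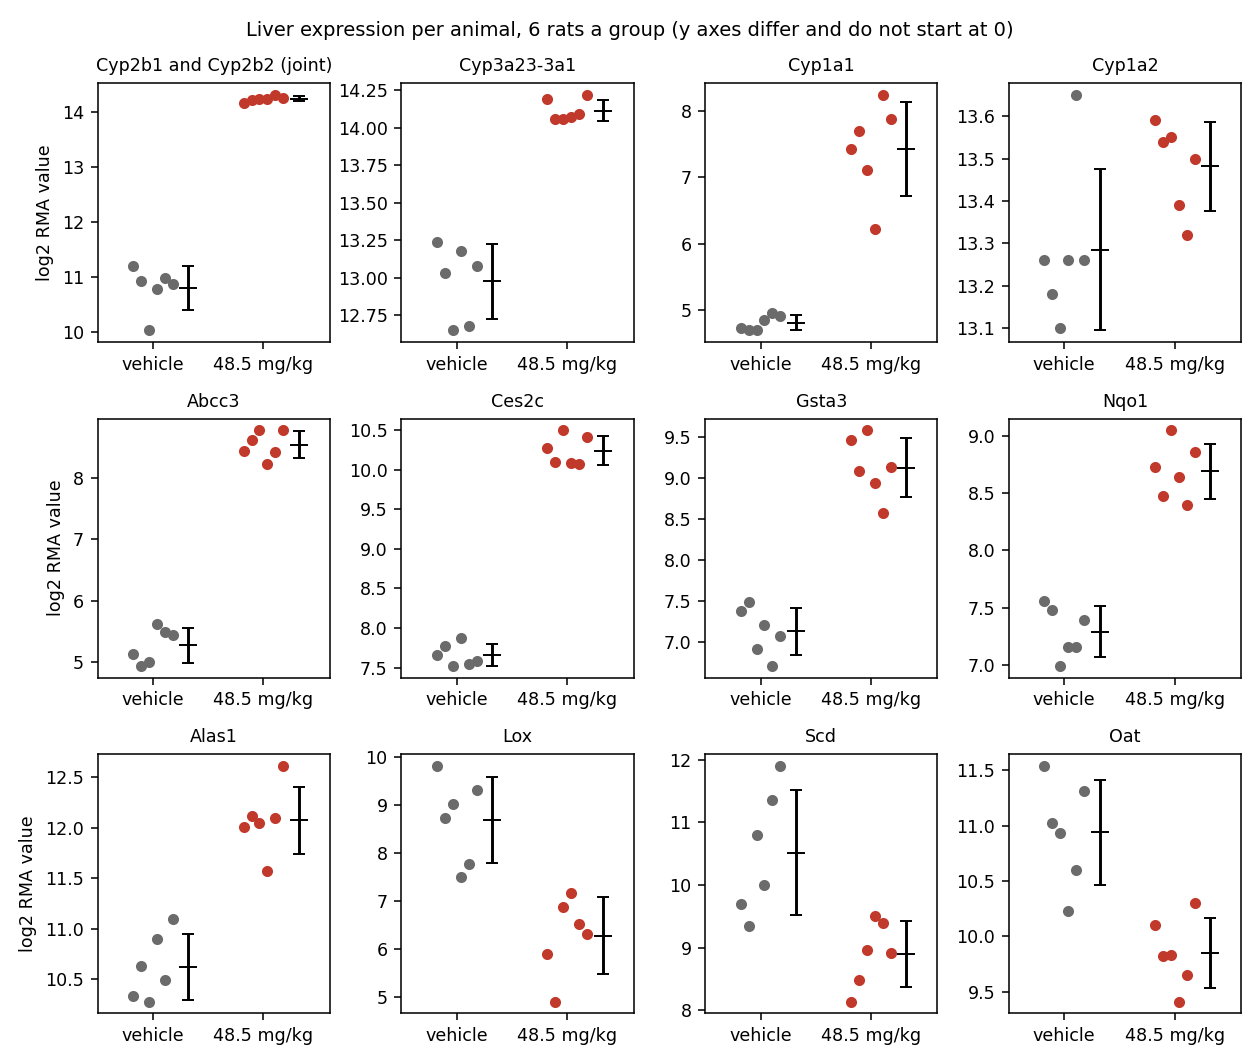
The log2 RMA value (y axis, a scale of its own in each panel) of 12 named genes in each of 6 vehicle animals (grey) and 6 animals at 48.5 mg/kg (red), with mean and SD beside the points. The groups are apart for the joint Cyp2b probe set, Cyp3a23-3a1, Cyp1a1, Abcc3, Ces2c, Gsta3, Nqo1, Alas1 and Lox, and they overlap for Cyp1a2, Scd and Oat.

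Among the Cyp4 fatty acid hydroxylases, 2 of 10 rose and 1 fell. Cyp4a8 lay between 4.76 and 5.50 in vehicle and between 6.70 and 7.10 after treatment, with no overlap (1.73 ± 0.21, adjusted p = 7.00e-07). Its relatives Cyp4a1 and Cyp4a3, which PPARA controls, changed by -0.32 ± 0.16 and -0.23 ± 0.11 and did not pass (adjusted p = 0.334 and 0.321). Cyp4f4 rose by 0.30 ± 0.06 and Cyp4f6 fell by 0.30 ± 0.06 on the log2 scale (adjusted p = 0.00454 and 0.00403), both without overlap. Of 32 other PPARA targets and genes of fatty acid oxidation, 1 rose and 0 fell, against 4.03% and 1.08% of all genes. That gene was Slc25a20, the mitochondrial carnitine carrier, at 0.24 ± 0.06 (adjusted p = 0.0158; 0.0954 with the 12 arrays alone).

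P450 enzymes need heme and electrons, and 4 of 18 genes on that list rose while 0 fell. Alas1, the first enzyme of heme synthesis, lay between 10.28 and 11.10 (median 10.56) in vehicle and between 11.57 and 12.61 (median 12.07) in treated animals. It rose by 1.45 ± 0.18, or 2.73-fold (adjusted p = 1.34e-06), with no overlap. Por, the reductase that passes electrons to all microsomal P450s, lay between 8.89 and 10.11 in vehicle and between 9.85 and 10.95 after treatment. Of its treated animals 4 lay above every vehicle animal, and the rise was 1.16 ± 0.24 (adjusted p = 0.00347). Blvrb, a biliverdin reductase, rose by 0.57 ± 0.06 and Cyb5a, cytochrome b5, by 0.34 ± 0.04 (adjusted p = 3.59e-08 and 1.60e-07). The related Cyb5r3 and Cyb5b changed by 0.20 ± 0.08 and 0.11 ± 0.07 and did not pass (adjusted p = 0.225 and 0.486).

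Hydrolases showed a sharp contrast between members. Ces2c, a carboxylesterase, lay between 7.52 and 7.87 (median 7.62) in vehicle and between 10.08 and 10.50 (median 10.19) in treated animals. It rose by 2.58 ± 0.13, or 6-fold (adjusted p = 3.37e-16), with no overlap. Ephx1, the microsomal epoxide hydrolase, rose by 0.72 ± 0.08, or 1.65-fold (adjusted p = 7.60e-08), with treated animals between 13.51 and 13.65 and no overlap. The other 9 of the 11 measured hydrolases did not pass, among them Ces1c at 0.04 ± 0.06 and Ces1d at 0.01 ± 0.14 (adjusted p = 0.835 and 0.991).

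Of 33 enzymes of aldehyde and carbonyl metabolism, 8 rose, against 4.03% of all genes, and 0 fell. With the 12 arrays alone 5 rose. The median of the list was 0.01, and -0.03 after quantile normalization. Aldh1a1, which oxidizes retinal and other aldehydes, led with 1.32 ± 0.09, or 2.49-fold (adjusted p = 2.18e-13). Its 6 vehicle animals lay between 11.49 and 11.97 and its 6 treated animals between 12.86 and 13.34. Akr7a3, an aflatoxin aldehyde reductase, rose by 0.77 ± 0.16, Akr1c14, a hydroxysteroid dehydrogenase, by 0.63 ± 0.08, and Aox1, aldehyde oxidase, by 0.40 ± 0.07. Their adjusted p were 0.00333, 6.60e-07 and 2.75e-04, and their groups did not overlap. Aldh1a2 and Aldh1a3, the close relatives of Aldh1a1, changed by -0.08 ± 0.12 and -0.11 ± 0.15 and did not pass (adjusted p = 0.824 and 0.811).

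Glutathione transferases join glutathione to reactive compounds, and 9 of the 19 measured rose while 0 fell, against 4.03% and 1.08% of all genes. Their median change was 0.26, against -0.00 over all genes. The median member lay 0.23 to 0.40 above the vehicle mean in each treated animal and -0.10 to 0.09 from it in each vehicle animal. Gsta3 lay between 6.71 and 7.49 (median 7.14) in vehicle and between 8.57 and 9.58 (median 9.10) in treated animals. It rose by 1.99 ± 0.17, or 3.98-fold (adjusted p = 3.54e-10), with no overlap. Gstt3 rose by 1.20 ± 0.16, Gstm3 by 0.86 ± 0.13 and Gsta4 by 0.59 ± 0.08, with adjusted p of 6.48e-06, 7.52e-05 and 5.44e-06. Gstm4, Gstm1, Mgst2, Gsta1 and Gstk1 rose by 0.57, 0.53, 0.48, 0.26 and 0.25. Gstm2 and Gstm5 changed by 0.37 ± 0.12 and 0.09 ± 0.09 and did not pass (adjusted p = 0.0931 and 0.71). Gstp1, which is low in normal rat hepatocytes, changed by -0.08.

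The 80 bases before the annotated start of Gsta3 are shown because they hold the core of an antioxidant response element, the sequence to which NRF2 binds. Capitals mark the match to TGACNNNGC, whose first base is at position -17 from the start. The stretch is from RefSeq, build GRCr8, plus strand, chr9:31154909-31154988.
Gsta3: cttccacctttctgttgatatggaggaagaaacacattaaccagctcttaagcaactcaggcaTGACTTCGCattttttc
This core, searched on both strands from 250 bases before to 50 after the start, was present in 14.4% of the 11700 measured genes that had such a window and in 16.1% of the 504 of these that rose. Among 16 glutathione transferases it was present in 6 (37.5%), namely Gsta1, Gsta3, Gstm5, Gstm7, Gstp1 and Gstz1. Of these 6, Gsta1 and Gsta3 rose. The AhR core GCGTG was present in 45.8% of all windows, in 55.4% of those of genes that rose and in 44.4% of the 126 windows of genes that fell. Among the 21 windows of genes that rose by at least 2-fold it was present in 8 (38.1%). It was present in 31.2% of the glutathione transferase windows, 48% of those of NRF2 targets and 60.7% of those of the proteasome list. A pair of AGTTCA half-sites spaced by 4 bases, a form of the sequence that PXR binds, was present in 2 of the 11700 windows. TGATGNAAT, the core of the amino acid response element, was present in 64 of them and in 0 of the windows of called genes. Matches describe letters in these windows only.

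The whole list of NRF2 targets gave 7 rises and 0 falls among 28 measured members, against 4.03% and 1.08% of all genes. Their median change was 0.18. Gsr, glutathione reductase, rose by 0.91 ± 0.10, or 1.88-fold (adjusted p = 8.50e-08). Me1, malic enzyme, which makes NADPH, rose by 0.76 ± 0.12 (adjusted p = 5.28e-05). Srxn1, sulfiredoxin, rose by 0.66 ± 0.14 (adjusted p = 0.00409), in 2 of its 3 probe sets. Htatip2, Tkt (transketolase) and Abhd4 rose by 0.62, 0.42 and 0.29. The 2 subunits of the enzyme that makes the glutathione precursor did not pass: Gclc changed by 0.32 ± 0.10 (adjusted p = 0.0832) and Gclm by 0.11 ± 0.12 (adjusted p = 0.758).

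Glucuronosyltransferases attach glucuronic acid to drugs, bilirubin and thyroid hormone, and 4 of the 8 with a probe set of their own rose while 0 fell. Ugt2b1 lay between 12.12 and 12.84 (median 12.47) in vehicle and between 13.64 and 13.89 (median 13.70) in treated animals. It rose by 1.25 ± 0.11, or 2.38-fold (adjusted p = 6.79e-10), with no overlap. Ugt2b10 rose by 0.59 ± 0.08, Ugt2a1 by 0.41 ± 0.08 and Ugt2b35 by 0.18 ± 0.04, with adjusted p of 6.17e-06, 0.00187 and 0.00506 (Ugt2b35 0.0951 with the 12 arrays alone). Sulfation and methylation gave 1 rise and 1 fall among 21 genes. Gnmt, which uses up methyl groups on glycine, fell by 0.64 on the log2 scale (SE 0.12, adjusted p = 8.53e-04), and Sult2b1 rose by 0.30 ± 0.09 (adjusted p = 0.0434, lost without 8 of the 12 arrays in turn).

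Transporters moved in both directions. Abcc3, a pump that sends conjugates from hepatocytes to blood, lay between 4.94 and 5.63 (median 5.28) in vehicle and between 8.22 and 8.77 (median 8.53) in treated animals. It rose by 3.27 ± 0.15, or 9.62-fold (adjusted p = 6.75e-18), the largest measured rise of a single gene, with no overlap. Abcb1a, the drug efflux pump P-glycoprotein, rose by 0.83 ± 0.14 and Abcc2, a canalicular conjugate pump, by 0.50 ± 0.10 (adjusted p = 1.84e-04 and 0.00332). Abcb11, the bile salt pump, changed by 0.02 ± 0.06 and Abcb4 by -0.23 ± 0.11 (adjusted p = 0.93 and 0.286). Uptake transporters gave 0 rises and 0 falls among 18 genes, with a median of -0.14. Slco1a4 changed by 0.16 ± 0.07 and Slco1a1 by -0.08 ± 0.07 (adjusted p = 0.229 and 0.609).

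Abcg5 and Abcg8, which together form the pump that moves cholesterol and plant sterols into bile, both fell. They are neighbours that point away from each other, and the 205 bases between their annotated starts are shown because the pair moved together. The stretch is from RefSeq, build GRCr8, plus strand, chr6:15717731-15717935, and capitals mark a match to TGACNNNGC, the antioxidant response core.
between Abcg8 and Abcg5: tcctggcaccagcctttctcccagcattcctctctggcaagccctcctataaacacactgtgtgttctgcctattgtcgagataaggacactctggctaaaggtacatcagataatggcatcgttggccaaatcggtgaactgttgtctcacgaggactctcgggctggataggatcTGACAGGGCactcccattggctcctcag
Abcg8 lay between 5.99 and 7.53 (median 7.14) in vehicle and between 4.95 and 6.52 (median 6.20) in treated animals. Abcg5 lay between 8.11 and 9.71 (median 9.08) in vehicle and between 7.28 and 8.65 (median 8.26) in treated animals. The groups overlapped in both genes, and replicate 5 was the lowest treated animal and replicate 1 the highest in both. Abcg8 fell by 0.96 on the log2 scale (SE 0.27, adjusted p = 0.0366) and Abcg5 by 0.92 (SE 0.27, adjusted p = 0.0451). Both calls were close to the threshold and were lost without most of the 12 arrays, each left out in turn. Abcg8 passed in 4 and Abcg5 in 3 of the 12 fits that left out 1 array. The adjusted p were highest, at 0.14 and 0.156, without replicate 5 of the treated group.

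Of 35 nuclear receptors and partners, 0 rose and 1 fell. Nr1i3 (CAR) changed by -0.39 ± 0.17 and Nr1i2 (PXR) by 0.03 ± 0.08, neither passing (adjusted p = 0.26 and 0.892). The one that fell was Nr3c1, the glucocorticoid receptor, by 0.46 on the log2 scale (SE 0.10, adjusted p = 0.00762; 0.0791 with the 12 arrays alone). Sgk1, a kinase that glucocorticoids induce, lay between 10.39 and 11.12 in vehicle and between 8.79 and 10.30 in treated animals. It fell by 1.16 (SE 0.29, adjusted p = 0.0186), a call lost without replicate 3, 4 or 5 of the treated group (0.0521, 0.0505 and 0.0585). Tsc22d3 and Fkbp5, both glucocorticoid targets, changed by 0.07 ± 0.17 and 0.28 ± 0.15 and did not pass (adjusted p = 0.892 and 0.398).

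Thyroid hormone genes were examined because polybrominated diphenyl ethers resemble thyroid hormone and because glucuronidation clears it. Of 14 such genes 1 rose, Me1, which also stands on the NRF2 list, and 0 fell. Dio1, the deiodinase that thyroid hormone induces, lay between 7.15 and 7.57 in vehicle and between 7.16 and 7.48 in treated animals. Its change was -0.03 ± 0.09 (adjusted p = 0.92). Thrsp, another target, changed by 0.28 ± 0.31 (adjusted p = 0.728), with vehicle animals spread from 10.75 to 13.24. In the growth hormone list of 22 genes, 0 rose and Socs2, a feedback inhibitor of the growth hormone receptor, fell. It lay between 7.33 and 9.08 in vehicle and between 5.22 and 7.67 in treated animals, a change of -1.71 ± 0.43 (adjusted p = 0.0196). It passed in 8 of the 12 fits without 1 array and had an adjusted p of 0.0546 with the 12 arrays alone.

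**Figure D3:**
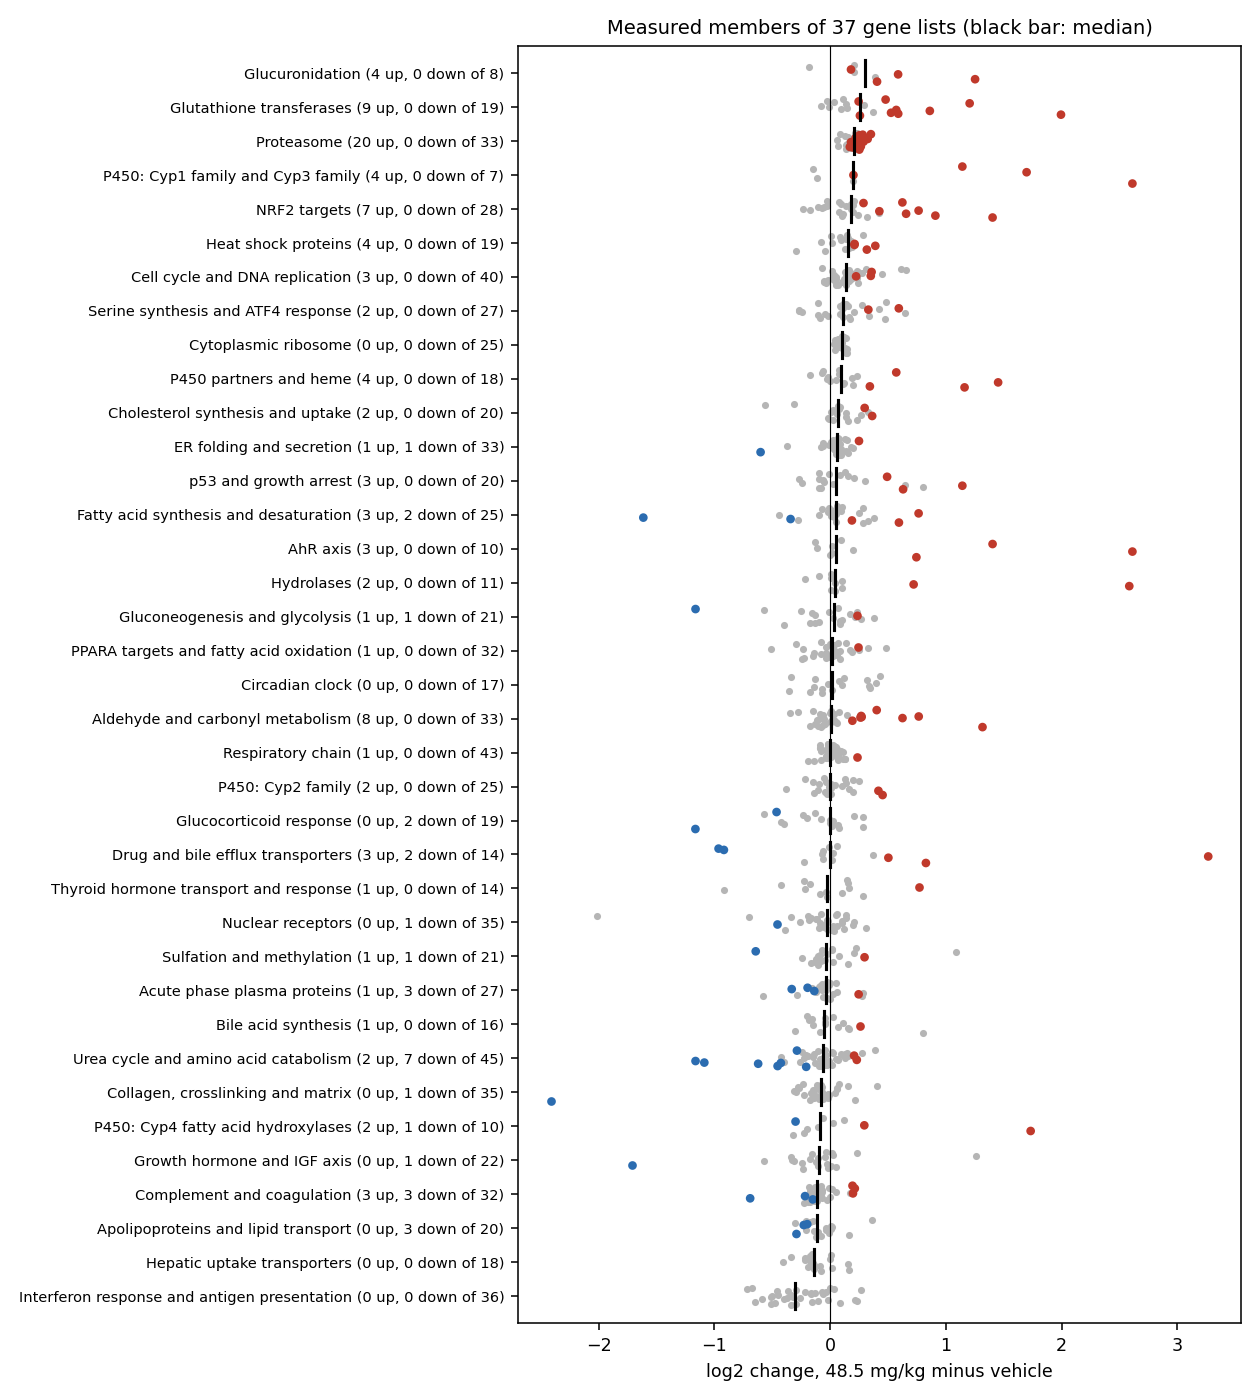
The log2 change at 48.5 mg/kg minus vehicle (x axis) of each measured member of the pathway lists (rows, ordered by their median, shown as a black bar), with members called higher in red, called lower in blue and others in grey. Glucuronidation (0.30), glutathione transferases (0.26) and the proteasome (0.21) have the highest medians, and the interferon list (-0.30) the lowest with 0 called members.

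Subunits of the proteasome, the complex that breaks down ubiquitin-tagged proteins, rose together by small amounts. Of 33 measured list members 20 rose and 0 fell, against 4.03% of all genes that rose, and all 33 changes were above 0 with a median of 0.21. The 20 were among the 30 subunits proper: 7 of 13 alpha and beta subunits of the 20S core, 5 of 6 Psmc ATPases and 8 of 11 Psmd subunits of the 19S cap. Vcp, a segregase that feeds the proteasome, and its partners Nploc4 and Ufd1 did not pass (0.09, 0.24 and 0.21). Changes of the subunits ran from 0.06 to 0.35. The groups did not overlap in 10 of the 20 that rose, a share near that of all genes that rose (271 of 573).

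Psmd14, the deubiquitinase of the cap, led with 0.35 ± 0.05, or 1.28-fold (adjusted p = 2.52e-05). Its vehicle animals lay between 9.79 and 9.98 and its treated animals between 10.05 and 10.44. Psmd2 rose by 0.32 ± 0.05, Psmc3 by 0.29 ± 0.05 and Psmc5 by 0.28 ± 0.06 (adjusted p = 1.90e-04, 5.93e-04 and 0.00198). Psma2 and Psma4 changed by 0.14 ± 0.05 and 0.18 ± 0.06 and did not pass (adjusted p = 0.135 and 0.0717). The median member lay 0.13 to 0.31 above the vehicle mean in each treated animal, lowest in replicate 2 and highest in replicate 6, and between -0.08 and 0.07 in vehicle. The count of 20 was 15 to 23 when single arrays were left out, 16 after quantile normalization and 21 after centring, and 7 with the spread of the 12 arrays alone.

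**Figure D4:**
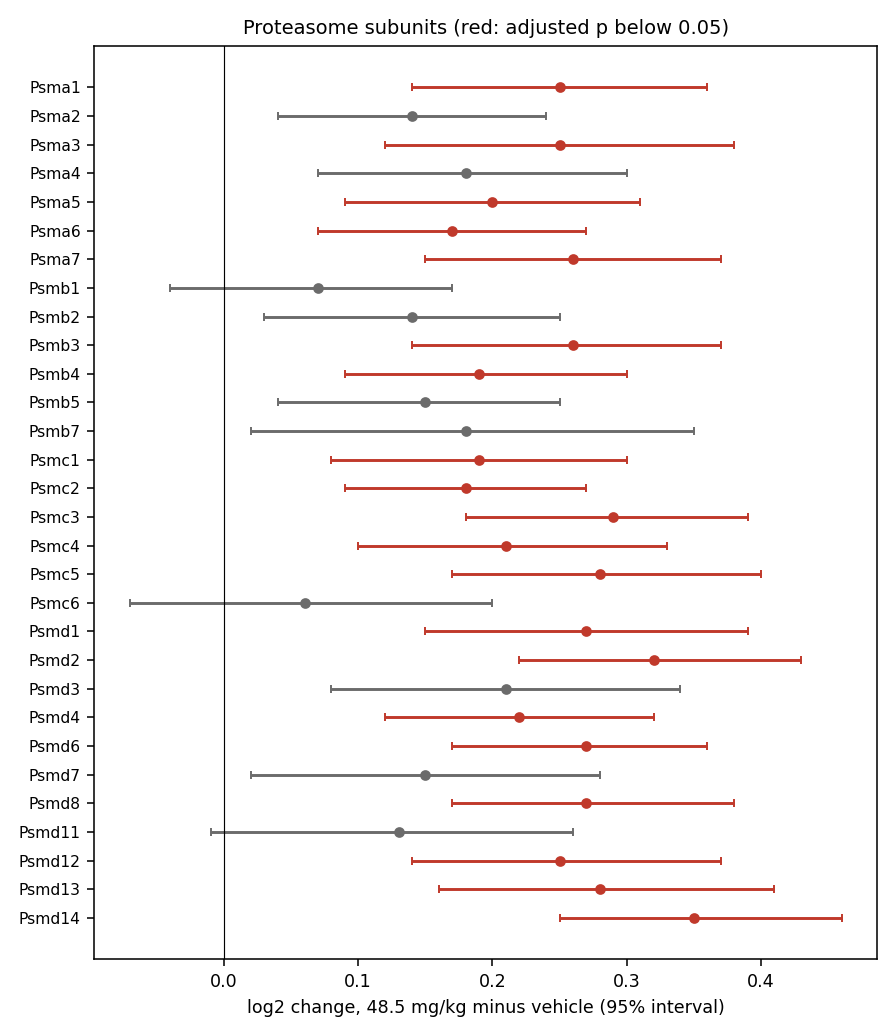
The log2 change at 48.5 mg/kg minus vehicle with its 95% interval (x axis) for 30 proteasome subunits (rows, by family), in red where the adjusted p was below 0.05. All 30 changes lie above 0, from 0.06 to 0.35, and 20 are red.

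Of 19 heat shock proteins 4 rose (2 with the 12 arrays alone) and 0 fell: Hspb8, a small chaperone, by 0.39 ± 0.09, and the mitochondrial chaperones Hspa9 by 0.32 ± 0.07 (its 4 probe sets ran from -0.19 to 0.47), Hspe1 by 0.21 ± 0.05 and Hspd1 by 0.21 ± 0.05. Their adjusted p were 0.00854, 0.0105, 0.00652 and 0.0206. The stress-induced Hspa1a changed by -0.29 ± 0.18 and did not pass (adjusted p = 0.453). Of 33 genes of folding in the endoplasmic reticulum 1 rose (Ssr1, 0.25 ± 0.07, adjusted p = 0.0238) and 1 fell (Pdia5, -0.60 ± 0.14, adjusted p = 0.00785). Hspa5, a main chaperone there, changed by 0.07 ± 0.06 (adjusted p = 0.58). The Ssr1 call was lost after quantile normalization and without any of several arrays, each left out in turn. Its adjusted p among those fits was highest, at 0.0697, without replicate 6 of the treated group. All 25 measured ribosomal proteins had changes above 0, with a median of 0.10, and 0 were called. The ATF4 list gave 2 rises among 27 (1 with the 12 arrays alone), the amino acid transporter subunits Slc3a2 (0.59 ± 0.15, adjusted p = 0.0153) and Slc7a5 (0.33 ± 0.10, adjusted p = 0.0458). The Slc7a5 call held in 2 of the 12 fits without 1 array.

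By count, amino acid breakdown gave the most falls of any list, but it also had the most measured members. Of 45 genes of the urea cycle and amino acid catabolism 7 fell (against 1.08% of all genes) and 2 rose, with a median of -0.06. With the 12 arrays alone 6 fell and 0 rose. Oat, which turns ornithine into glutamate, lay between 10.23 and 11.54 (median 10.97) in vehicle and between 9.41 and 10.30 (median 9.83) in treated animals. Of its treated animals 5 lay below all vehicle animals, and it fell by 1.09 (SE 0.19), or 2.12-fold (adjusted p = 3.67e-04). Gls2, the liver glutaminase, lay between 10.60 and 11.12 in vehicle and between 10.08 and 10.52 in treated animals, with no overlap (-0.62 ± 0.10, adjusted p = 9.02e-05). Ass1, a urea cycle enzyme, fell by 0.45 (SE 0.06, adjusted p = 1.34e-06), with no overlap. Cdo1, which oxidizes cysteine, fell by 0.29. Sds, serine dehydratase, fell by 1.16 (SE 0.30, adjusted p = 0.0221), with vehicle animals spread from 5.90 to 8.39. The Sds call was lost without any of 4 arrays, and without vehicle replicate 6 the adjusted p was 0.0727. Otc and Asl, other urea cycle enzymes, changed by -0.10 ± 0.05 and -0.08 ± 0.08 and did not pass (adjusted p = 0.381 and 0.698).

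These genes overlap with markers of zones of the liver lobule. Of 10 periportal markers 3 fell (Gls2, Ass1 and Sds), against 1.08% of all genes, and 0 rose. Their median was -0.29, and each treated animal's median member lay between -0.37 and -0.13. Pck1 and Hal, also periportal, changed by -0.40 ± 0.23 and -0.42 ± 0.15 and did not pass (adjusted p = 0.425 and 0.11). Of 11 pericentral markers 0 rose and 2 fell, against 1.08% of all genes. Their median was 0.03, and 6 of the 11 changes were above 0. The 2 that fell were Oat and Glul, glutamine synthetase (-0.43 ± 0.11, adjusted p = 0.0197). The Glul call was lost without vehicle replicate 1 or replicate 3 or 4 of the treated group (0.0523, 0.0664 and 0.0506). Cyp2e1, another pericentral marker, changed by -0.10 ± 0.07 (adjusted p = 0.54). In whole liver, fewer cells of a type and less RNA per cell cannot be told apart.

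Lipid genes moved singly. Scd, the desaturase that makes oleate, lay between 9.35 and 11.90 (median 10.39) in vehicle and between 8.14 and 9.50 (median 8.94) in treated animals. It fell by 1.61 (SE 0.45), or 3.06-fold, but its vehicle animals were spread widely (SD 1.00) and the adjusted p was 0.0347. It passed in 5 of the 12 fits without 1 array, and without vehicle replicate 6 the adjusted p was 0.1. Acaca, the first enzyme of fatty acid synthesis, rose by 0.59 ± 0.14 and Me1 by 0.76 ± 0.12, while Elovl5, an elongase, fell by 0.34 (SE 0.09). Acaca and Elovl5 had adjusted p of 0.0123 and 0.0171, and the mean of the 2 Elovl5 probe sets did not pass (0.194). In all, 3 of 25 genes of fatty acid synthesis rose and 2 fell. Cholesterol synthesis gave 2 rises among 20 (0 with the 12 arrays alone), Fdft1 (0.36 ± 0.10, adjusted p = 0.0442, held in 3 of the 12 fits without 1 array) and Sc5d (0.30 ± 0.07, adjusted p = 0.00836; 0.0665 with the 12 arrays alone).

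Cyp7a1, which sets the rate at which bile acids are made, lay between 10.42 and 12.21 in vehicle and between 11.39 and 12.78 in treated animals. Its change of 0.81 ± 0.27 did not pass (adjusted p = 0.104). Of 16 genes of bile acid synthesis 1 rose, Akr1d1 (0.26 ± 0.06, adjusted p = 0.00753; 0.315 for the mean of its 2 probe sets). Of 20 apolipoproteins and genes of lipid transport 0 rose and 3 fell. They were Apoa5 (-0.29 ± 0.07), Lipc, hepatic lipase (-0.23 ± 0.06), and Lcat, which esterifies cholesterol in plasma (-0.20 ± 0.04). Their adjusted p were 0.00827, 0.0296 and 0.00178, and with the 12 arrays alone 0 of the list passed.

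Secreted plasma proteins changed by small amounts. Of 27 acute phase proteins, where the 12 arrays alone gave 0 rises and 1 fall, 1 rose (Crp, 0.25 ± 0.07, adjusted p = 0.0442) and 3 fell: Serpina3n (-0.33 ± 0.06, adjusted p = 2.80e-04), Itih2 (-0.20 ± 0.05, adjusted p = 0.0113) and Fgb, a fibrinogen chain (-0.14 ± 0.04, adjusted p = 0.0358; 1 of its 3 probe sets). Crp and Fgb passed in 4 and 6 of the 12 fits without 1 array. Of 32 complement and coagulation genes 3 rose and 3 fell (0 and 1 with the 12 arrays alone), against 4.03% and 1.08% of all genes. Among those that fell were C6 (-0.69 ± 0.19, adjusted p = 0.039), of the membrane attack complex, and C9 (-0.22 ± 0.05, adjusted p = 0.0171). C6 passed in 5 of the 12 fits without 1 array (0.111 without vehicle replicate 3). Ang, angiogenin, which the liver secretes, fell by 0.49 (SE 0.06, adjusted p = 2.74e-06), from between 13.07 and 13.32 to between 12.52 and 12.90, with no overlap.

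The largest fall belonged to Lox, lysyl oxidase, which crosslinks collagen and elastin. Its animals lay between 7.51 and 9.82 (median 8.87) in vehicle and between 4.91 and 7.17 (median 6.42) in treated animals. The groups did not overlap, although each spanned over 2 log2 units. Lox fell by 2.41 (SE 0.40), or 5.33-fold (adjusted p = 2.07e-04), and its other probe set by 2.30. The rest of the matrix list did not follow: of 35 measured genes Lox alone was called. Loxl1 and Loxl2, its relatives, changed by 0.21 ± 0.15 and -0.18 ± 0.17 (adjusted p = 0.558 and 0.681).

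Stac3, known as a muscle protein, fell by 1.93 (SE 0.39), or 3.82-fold (adjusted p = 0.00237). It lay between 9.07 and 10.93 in vehicle and between 7.14 and 9.24 in treated animals, and 5 of 6 treated animals lay below all vehicle animals. The other 9 genes of the muscle list did not pass, and Acta1 and Myh4, the defining ones, were below the array median in every animal (3.00 to 3.42 and 2.94 to 3.19). Spink1, a trypsin inhibitor also made by the pancreas, fell by 0.62 (SE 0.16, adjusted p = 0.0198) and its neighbour in sequence Spink1l by 0.70 (SE 0.13, adjusted p = 0.00141), both without overlap. The upstream bases of these 2 genes match in 238 of 239 aligned positions (99.6%), and the Spink1 probe set is of a type that can bind related transcripts. The pancreatic trypsinogens Prss1 and Prss2 were below the array median in every animal, at 3.28 to 3.60 and 2.82 to 3.25.

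The remaining named falls were of 1.39-fold to 1.59-fold, all without overlap. Car1, a carbonic anhydrase of red cells, fell by 0.66 (SE 0.10, adjusted p = 7.52e-05). Dexi, Ak4 (a mitochondrial adenylate kinase), Slc6a13 (a GABA and taurine transporter) and Abca8a fell by 0.60, 0.58, 0.55 and 0.54. Crip2, Sult1c2a, Slc17a2, Abhd2 and Acadsb fell by 0.52, 0.50, 0.50, 0.50 and 0.48. Slc30a3, a zinc transporter, fell by 0.58 and Bcl2a1, an inhibitor of cell death, by 0.53. The Slc30a3 and Bcl2a1 calls held in 7 and 5 of the 12 fits without 1 array. Their highest adjusted p were 0.111 without vehicle replicate 5 and 0.123 without replicate 5 of the treated group. The Sult1c2a call was lost without vehicle replicate 3 or replicate 6 of the treated group (adjusted p = 0.0518 in both fits).

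Large rises also occurred outside drug metabolism. Snx10, a sorting nexin, lay between 5.13 and 6.25 in vehicle and between 7.46 and 8.06 in treated animals (1.82 ± 0.23, adjusted p = 1.62e-06). Zdhhc2, which attaches palmitate to proteins, rose by 1.27 ± 0.12, from between 6.05 and 6.70 to between 7.41 and 7.71 (adjusted p = 3.47e-09). Both were without overlap. Mnd1, of meiotic recombination, rose by 1.19 ± 0.12, Cers6, a ceramide synthase, by 1.10 ± 0.16, Cndp2, a peptidase, by 1.03 ± 0.10, and Vav2, an exchange factor of small GTPases, by 1.03 ± 0.08. App, the amyloid precursor protein, rose by 1.00 ± 0.09 in its brightest probe set and by up to 1.48 in its other probe sets. Abcd2, a peroxisomal fatty acid transporter, rose by 0.99 ± 0.13 and Casp4, an inflammatory caspase, by 0.97 ± 0.18. Retreg1, of the autophagy of endoplasmic reticulum, rose by 1.27 ± 0.31 and Mid1, a ubiquitin ligase, by 1.24 ± 0.18, but a further probe set of each changed by 0.22 and 0.06.

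Hdc makes histamine. It lay between 5.32 and 6.94 (median 6.80) in vehicle and between 7.70 and 9.02 (median 8.05) in treated animals, a rise of 1.67 ± 0.29 (adjusted p = 3.67e-04) with no overlap. Hdc stands on the list of mast cell markers. The other 7 markers of that list did not pass, among them Cpa3 (-0.30 ± 0.12) and Mcpt1 (0.12 ± 0.15), with adjusted p of 0.196 and 0.768.

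Growth control genes rose singly. Gadd45b, of growth arrest and stress, lay between 5.11 and 5.43 in vehicle and between 5.82 and 7.35 in treated animals (1.14 ± 0.21, adjusted p = 6.97e-04). Mdm2, which restrains p53, rose by 0.63 ± 0.12 and Plk2 by 0.49 ± 0.12 (adjusted p = 0.00105 and 0.0187). Cdkn1a, the main p53 target of cell cycle arrest, changed by -0.08 ± 0.18 (adjusted p = 0.893). Of 40 cell cycle genes 3 rose, against 4.03% of all genes, and 0 fell, with a median of 0.14. The count was 1 to 5 when single arrays were left out and 1 with the 12 arrays alone, and 16 of the 40 lay below the array median in vehicle. The 3 act in DNA replication: Fen1 (0.36 ± 0.08), Mcm2 (0.35 ± 0.09) and Pcna (0.22 ± 0.06). Their adjusted p were 0.00385, 0.0294 and 0.0414, and Mcm2 and Pcna passed in 5 and 4 of the 12 fits without 1 array (0.106 and 0.149 without replicate 6 of the treated group). The mitotic cyclins Ccna2 and Ccnb1 changed by 0.14 ± 0.25 and 0.05 ± 0.19 and did not pass (adjusted p = 0.855 and 0.944).

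Few markers of other cells of the liver were called. Among markers of Kupffer cells, endothelium, B cells, neutrophils, platelets and adipocytes 0 rose and 0 fell, of 10, 12, 5, 9, 5 and 6 measured. Kupffer cell markers had changes below 0 in all 10, with a median of -0.17, and each treated animal's median member ran from -0.63 (replicate 3) to 0.15. Among 15 markers of T and NK cells Cd8a fell by 0.43 (SE 0.10, adjusted p = 0.00978; 0.0811 with the 12 arrays alone) in 1 of its 3 probe sets, and 10 of the 15 were below the array median in vehicle. Rgs5, of pericytes, rose by 0.84 ± 0.15 among 14 stellate cell markers, and Epcam, of bile ducts, by 0.40 ± 0.10 among 7 (adjusted p = 8.53e-04 and 0.0178). Each was the only member of its list called, where 4.03% of all genes rose. Of the 14 stellate cell markers 10 had changes below 0, with a median of -0.10. Of the 7 bile duct markers 3 had changes below 0, with a median of 0.03. Tfrc, the transferrin receptor, rose by 0.75 ± 0.17 (adjusted p = 0.0073, and 0.0841 with the 12 arrays alone) on the red cell list. Of the 8 measured genes of that list 1 rose and 1, Car1, fell, with a median of -0.00. Alas2, also on it, did not pass (0.14 ± 0.19). The interferon list of 36 genes gave 0 calls with a median of -0.30, and its treated animals ran from -0.71 (replicate 3) to 0.05, against -0.27 to 0.47 in vehicle. Irf7, a regulator of that response, changed by -0.51 ± 0.37 (adjusted p = 0.556). The respiratory chain gave 1 rise among 43 (Ndufs1, 0.23 ± 0.05, adjusted p = 0.0101; 0.08 with the 12 arrays alone) and the clock list 0 calls among 17. The part of these markers in other results was not tested.

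The neighbouring doses place these changes. Against 4.85 mg/kg, 367 probe sets (1.18%) were called at 48.5 mg/kg, 275 of them higher, and 155 without replicate 5 of the 48.5 mg/kg group. Between 485 and 48.5 mg/kg the count was 1509 (4.86%), 792 higher and 717 lower. All these comparisons share the arrays at 48.5 mg/kg. Of the 25 largest single-gene rises among genes whose groups did not overlap, 23 were also higher at 48.5 than at 4.85 mg/kg. Of the 25, 4 (Abcc3, Ces2c, Aldh1a1 and Ugt2b1) were already called at 4.85 mg/kg against vehicle. These rises, and the largest falls counted below, were picked by their values at 48.5 mg/kg. That choice favours a difference from 4.85 mg/kg and works against a further step to 485 mg/kg.

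Some rises did not increase detectably from 48.5 to 485 mg/kg. The joint Cyp2b probe set was 2.17 above vehicle at 4.85, 3.45 at 48.5 and 3.65 at 485 mg/kg. Its last step of 0.19 (95% interval -0.15 to 0.54, adjusted p = 0.666) was measured near 15.05, the highest value on the arrays, and bounds the measured step only. Ugt2b1 gave 0.76, 1.25 and 1.45, with a last step of 0.20 (-0.03 to 0.42, adjusted p = 0.402). App gave 0.28, 1.00 and 1.09, with a last step of 0.09 (-0.10 to 0.28). Cyp3a9 gave 0.98, 1.70 and 1.24, and its last step of -0.46 (SE 0.26) did not pass (adjusted p = 0.42). In all, 11 of the 25 were not called between 485 and 48.5 mg/kg.

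The other 14 rose further. Cyp1a1 gave 0.39 at 4.85, 2.61 at 48.5 and 6.03 at 485 mg/kg, a last step of 3.42 (2.90 to 3.95, adjusted p = 4.77e-11). Gsta3 gave 0.74, 1.99 and 3.79, a last step of 1.80 (1.45 to 2.14). Abcc3 gave 1.06, 3.27 and 4.55, and Ces2c 0.75, 2.58 and 4.21, with last steps of 1.28 (0.99 to 1.58) and 1.63 (1.35 to 1.90). Zdhhc2 and Nqo1 had last steps of 1.57 (1.33 to 1.82) and 1.32 (1.07 to 1.58). Among the proteasome subunits 26 of 30 were called higher at 485 than at 48.5 mg/kg and 5 of 30 higher at 48.5 than at 4.85 mg/kg.

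Falls were not called at the dose below. Of the 20 largest falls among genes whose groups did not overlap, which leaves out larger falls such as those of Stac3, Socs2, Scd, Oat, Abcg8 and Abcg5, 0 were called at 4.85 mg/kg against vehicle, 13 were lower at 48.5 than at 4.85 mg/kg and 7 fell further to 485 mg/kg. Lox gave -1.42, -2.41 and -2.95, with a last step of -0.53 (-1.35 to 0.28, adjusted p = 0.587). Outside that set, Scd gave -1.12, -1.61 and -0.93, and its steps of -0.50 from 4.85 to 48.5 mg/kg and 0.68 from 48.5 to 485 mg/kg did not pass (adjusted p = 0.718 and 0.511). Oat, also outside it, gave -0.05, -1.09 and -1.80, with a last step of -0.71 (-1.09 to -0.33, adjusted p = 0.0181). Abcg5 and Abcg8 had last steps of -1.08 and -1.25 (adjusted p = 0.0101 and 0.0028), so their falls, fragile at 48.5 mg/kg, were larger at the highest dose.

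**Figure D5:**
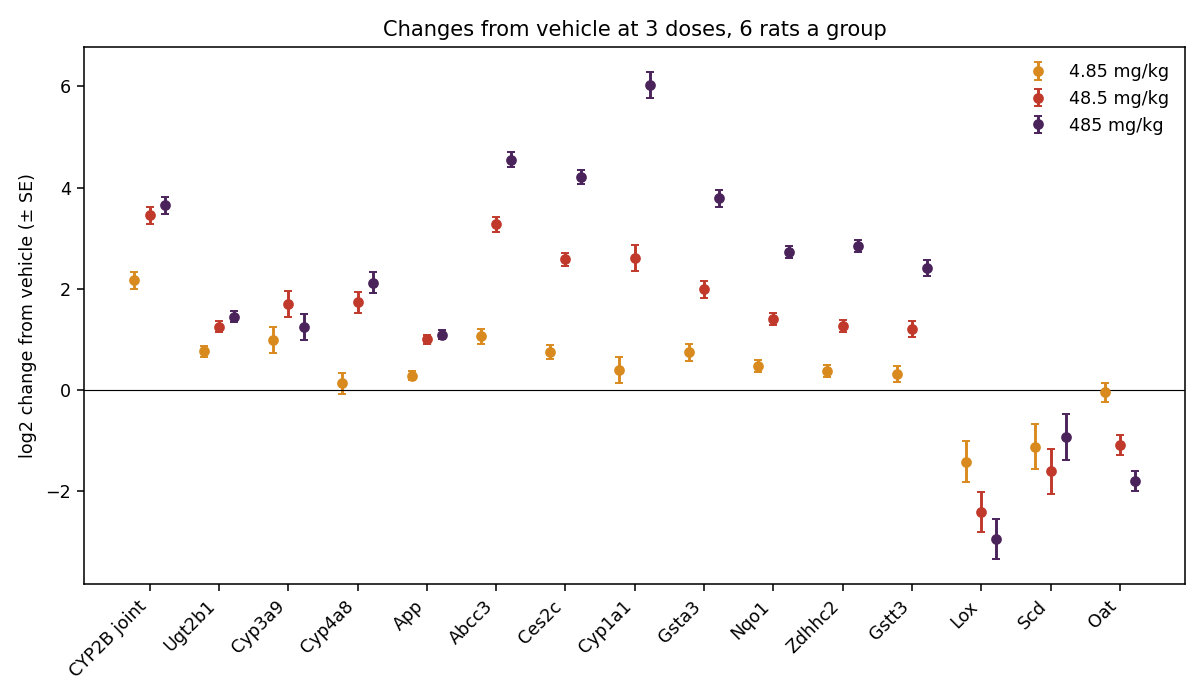
The log2 change from vehicle with its SE (y axis) of 15 named genes (x axis) at 4.85, 48.5 and 485 mg/kg, with 6 animals a group and the same vehicle animals throughout. The joint Cyp2b probe set, Ugt2b1, Cyp3a9 and App are close at 48.5 and 485 mg/kg, while Cyp1a1 goes from 2.61 to 6.03 and Gsta3 from 1.99 to 3.79.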

How the data were processed

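The deposited values are log2 expression values, 1 per probe set and array, which the authors made with RMA and the R package affy, per the submitters' processing notes, in versions not given in the sources used here. RMA quantile normalizes the arrays, so values are relative to a shared distribution, and no depth exists: the number of arrays limits the precision. The 57 control probe sets were left out and the other 31042 tested, dim ones included. The platform table gave 1 gene for 20826 of them (14217 genes), several for 436 and none for 9780, and 20758 matched RefSeq (GRCr8) by Entrez identifier. Promoter sequences come from RefSeq, build GRCr8.

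Group means of all 36 arrays were fitted with limma 3.58.1 under R 4.3.3, using its moderated test, with Benjamini-Hochberg adjustment over 31042 probe sets and calls at an adjusted p below 0.05. The study named R/maanova with a false discovery rate under 5%, which was not used here. The ordinary test stood in as an alternative. In simulated data, 76% of probe sets changed by 0.5 and 30% of those changed by 0.25 (log2) were called in this comparison. Sequences were aligned with Biopython 1.88, and permutation tests used SciPy 1.17.1.

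The named genes are a panel, the 25 largest rises and 20 largest falls among called genes whose groups did not overlap, and from each list up to 4 called members and the first 2 that did not pass. Genes named beyond this rule were chosen after their values were seen. The comparison, lists and panel were chosen with earlier results of these data known. Single choices were varied in turn: each array left out, only the arrays compared, array weights, trend and robust settings, the ordinary test, brighter probe sets only, centring, quantile normalization, a block for the replicate number, genes as means of their probe sets, and a 1.5-fold minimum change.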

Additional observations from a re-analysis of the deposited data

Results flagged for a closer look

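In 8 of the 110 sets of 6 animals examined (55 named genes in 2 groups), 1 animal lay far from the other 5 for the size of the group's range. Chance alone gives about 1 in 20 such sets, or 5.5 of 110. Vehicle replicate 3 had a joint Cyp2b1 and Cyp2b2 value of 10.02, with the nearest animal at 10.77 and the highest at 11.19. Vehicle replicate 5 had Cyp1a2 at 13.65, with the nearest at 13.26. Vehicle replicate 1 had Casp4 at 7.21, with the nearest at 7.56, and vehicle replicate 4 had Acadsb at 8.53, with the nearest at 8.29. In the 48.5 mg/kg group, replicate 4 had Cndp2 at 9.85 (nearest 10.17) and replicate 2 had Dexi at 7.58 (nearest 7.80). Replicate 1 of that group had Vav2 at 8.37 (nearest 8.59) and Pdia5 at 6.91 (nearest 7.36). All of these but Cyp1a2, which was not called, kept their calls in each of the 12 fits without 1 array.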

How the results depend on the processing

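Of the called named genes 0 changed direction under an alternative. Of the others 21 did, all with changes of 0.28 or less, and so did the medians of 2 lists (beside those reported as 0.00), all of 0.01 or less, such as aldehyde and carbonyl metabolism (0.01, and -0.03 after quantile normalization). The median of all probe sets was -0.010, and 0.007 after centring. A minimum change of 1.5-fold left 21 called probe sets (19 higher and 2 lower), 4 against 4.85 mg/kg and 18 at 485 against 48.5 mg/kg. The 12 arrays alone, where fewer arrays estimate the spread, gave 556 (420 and 136), 171 and 880. The cause of these lower counts was not tested. Brighter probe sets only gave 584 against 4.85 mg/kg. Leaving out each array gave 678 to 1138 calls (527 to 864 higher, 146 to 274 lower), 155 to 437 against 4.85 mg/kg and 1127 to 1530 at 485 against 48.5 mg/kg. Lower calls were fewest without replicate 6 of the 48.5 mg/kg group, and the count against 4.85 mg/kg was 212 and 228 without replicates 1 and 3 of the 4.85 mg/kg group. The cause of these differences between arrays was not tested. A fit with the replicate block gave 1071 calls (804 and 267). Deviations of same-numbered animals correlated between -0.061 and 0.23, and not every animal correlated best with its own number, so the numbers were not taken to pair animals. Of 119 called named genes, 28 lost the call without at least 1 array. List counts under these alternatives were added after seeing the data. Signal near background limits the folds of dim genes.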

Other observations

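Genes described here were chosen after their values were seen. Of the 727 genes called at 48.5 mg/kg against vehicle, 240 were called again in the same direction at 485 against 48.5 mg/kg and 7 in the opposite direction. Both comparisons use the arrays at 48.5 mg/kg, so a high or low group there enters each with opposite sign. The 7 rose at 48.5 mg/kg and were lower at 485 mg/kg: Gas5, a growth arrest RNA that hosts small nucleolar RNAs, Nmnat1, which makes nuclear NAD, Atl1, Swsap1, Tbcel, Extl1 and RGD1311745. Gas5 changed by 0.35 at 48.5 mg/kg and by -0.03 at 485 mg/kg against vehicle, a step of -0.39 (adjusted p = 0.00518). Nmnat1 gave 0.28 and 0.05, with a step of -0.24 (adjusted p = 0.0482), and Atl1 gave 0.52 and -0.25, with a step of -0.77 (adjusted p = 5.07e-04). Most of these calls at 48.5 mg/kg against vehicle did not hold in every fit without 1 array. Of the 12 fits without 1 array, RGD1311745 passed in 3, Atl1 in 6, Tbcel and Extl1 in 7, Nmnat1 in 8, Gas5 in 11 and Swsap1 in 12. With the 12 arrays alone the adjusted p was 0.162 for RGD1311745, 0.0833 for Gas5, 0.126 for Extl1, 0.0692 for Nmnat1 and 0.0896 for Atl1. A further probe set of RGD1311745 changed by -0.10, and Atl1 was below the array medians in both groups (means 3.90 and 4.42).

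Some genes with large mean differences did not pass, and their animals were spread widely within a group. Onecut1, a transcription factor of hepatocytes, lay between 9.69 and 11.34 in vehicle and between 6.83 and 10.62 in treated animals, and its change of -2.02 had an adjusted p of 0.0763. Bcl6, a repressor that growth hormone lowers, lay between 6.36 and 8.32 in vehicle and between 6.49 and 9.92 in treated animals (1.26, adjusted p = 0.401). Serpina7, the thyroxine-binding globulin, lay between 9.96 and 11.48 in vehicle and between 8.93 and 10.18 in treated animals. Its change of -0.92 did not pass (adjusted p = 0.16), and at 485 mg/kg it was -2.61 (adjusted p = 5.76e-07). Gadd45a changed by 0.80 (adjusted p = 0.104), with treated animals from 8.82 to 11.11.

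Bhlha15, a factor of secretory cells, rose by 0.87 at 48.5 mg/kg (adjusted p = 0.007) and gave 0.53 at 485 mg/kg (adjusted p = 0.0645). Ccl2, a chemokine, fell by 0.80 (adjusted p = 0.0247, lost without 5 of the 12 arrays in turn) and gave -0.41 at 485 mg/kg (adjusted p = 0.213). In vehicle and at 48.5 mg/kg both lay below the array medians (group means 4.30 and 5.17 for Bhlha15, 5.04 and 4.24 for Ccl2), so their folds are inexact. The difference between the 2 doses did not pass for Bhlha15 (adjusted p = 0.415) or Ccl2 (adjusted p = 0.382).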
